A study of Mus musculus with 8 samples.

Results

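Estrogen, androgen and progesterone signalling was examined through 6 genes: Esr1, Esr2 and Pgr, which encode receptors, Cyp19a1 and Srd5a1, which encode converting enzymes, and Greb1. They were taken by gene symbol from count tables of 24421 genes, of which 15438 were tested, and all 6 had enough counts to be tested. The tables hold RNA from a purification of the tagged ribosomes of Otp-lineage cells, from the dissected hypothalamus and medial amygdala of C57BL/6 mice. The 4 KO libraries came from mice with Otp-Cre, Cicflox/flox and ROSAfsTRAP, and the 4 Control libraries from mice with Otp-Cre and ROSAfsTRAP, so Otp-Cre and ROSAfsTRAP were common to both groups and the floxed Cic allele was in KO mice alone. Cic encodes the transcriptional repressor Capicua, and the question is how its loss in this lineage changes the RNA under translation. In this design Cre acts in any cell with a history of Otp expression, and the labels give neither the sex, age nor hormonal state of the mice nor whether a library holds 1 animal or a pool.

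Gonadal steroids act on the brain mainly through nuclear receptors, which bind DNA once the hormone is bound and recruit coregulators to their target genes. In the male rodent brain testosterone reaches these receptors directly, after reduction to dihydrotestosterone, or after aromatisation to estradiol, and the hypothalamus and medial amygdala are classical sites of all these routes in reproductive and social behaviour. Estrogen receptor alpha is known to induce the progesterone receptor gene in the hypothalamus, and Greb1 is a known estrogen target in human breast cancer cells.

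The libraries held 33223878 to 49587839 gene counts in KO and 38171319 to 57300362 in Control. Cic measured 44.0 ± 11.04 CPM (the count scaled to library size) in KO and 94.2 ± 14.6 CPM in Control (mean ± SD, n = 4 each; log2 fold change -1.10, adjusted p = 0.00220 in edgeR), with counts over the whole gene, so RNA outside the deleted part is included. The Y-linked genes Ddx3y, Kdm5d, Uty and Eif2s3y summed to 62.9 to 92.1 CPM in KO libraries and 69.8 to 74.9 in Control libraries, while Xist stood at 1.40 to 3.37 CPM in KO libraries and 1.22 to 1.81 in Control libraries. The 5 markers of the Otp lineage summed to 217 to 355 CPM in KO libraries and 212 to 285 in Control libraries, with Otp itself at 4.96 ± 2.54 CPM in KO and 3.45 ± 1.14 CPM in Control. All 5 had positive log2 fold changes (median 0.44) and none passed the test. Whether these markers measure lineage content, and what a difference in it adds to the values of other genes, was not tested. All 6 markers of hypothalamic nuclei outside the lineage were also counted (104.6 to 176 CPM summed in KO libraries, 73.8 to 128 in Control libraries). Of these, 4 had positive and 2 negative log2 fold changes (median 0.39), and none passed. In such bulk libraries fewer cells of a type cannot be told apart from less RNA per cell. Of 8 oligodendrocyte markers 1 fell, Cldn11, where 0.0648% of all tested genes fell. All 8 had negative log2 fold changes (median -0.34), 4 at an unadjusted edgeR p of 0.05 and 3 without overlap between the groups. Of all tested genes 53.8% had a positive fold change, 10.6% passed at that unadjusted p and 5.93% did not overlap. The 8 markers summed to 1404 to 2588 CPM in KO libraries and 2140 to 2783 in Control libraries. The 5 pituitary hormone genes summed to 1737 CPM in KO replicate 2 against 1.90 to 8.995 CPM in the other KO libraries and 0.688 to 6.93 in Control libraries. Markers of other cells were thus counted in these libraries, and no input fraction is among them. The level of a gene therefore cannot be assigned to Otp-lineage cells alone.

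None of the 6 genes passed the test at an edgeR adjusted p of 0.05, in either direction, where 0.259% of all tested genes did (0.194% higher in KO, 0.0648% lower). At an unadjusted p of 0.05, 2 of the 6 passed, Esr1 and Pgr, both with KO higher, against 10.6% of all tested genes (6.06% with KO higher), and DESeq2 called 0 of the 5 to which it gave an adjusted p (not Cyp19a1). The fold change was positive for 5 of them (53.8% of all tested genes) and negative for Greb1, with a median log2 fold change of 0.45 beside 0.02 for all tested genes. For none of the 6 were the 4 KO libraries all above or all below the 4 Control libraries, which holds for 5.93% of tested genes (3.01% with KO higher, 2.91% with KO lower). The genes were chosen with earlier results of these data known, so these counts describe them and are no test of them as a set.

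On a scale that corrects for transcript length, CPM per kb of exon, the 6 genes fell into an abundant pair and 4 sparse genes. Srd5a1 was the highest, at 9.86 ± 0.582 CPM per kb in KO and 8.49 ± 1.31 in Control (n = 4 each). Pgr followed at 6.66 ± 1.17 CPM per kb in KO and 5.42 ± 0.443 in Control, and its range did not overlap that of Srd5a1 in either group. Next in both groups came Esr1, at 0.799 ± 0.150 CPM per kb in KO and 0.525 ± 0.158 in Control, well below Pgr in every library. Esr2 stood at 0.387 ± 0.141 CPM per kb in KO and 0.228 ± 0.0707 in Control. Its range overlapped that of Esr1 in Control and not in KO. Greb1 (0.178 ± 0.106 CPM per kb in KO, 0.204 ± 0.0817 in Control) and Cyp19a1 (0.126 ± 0.0632 in KO, 0.0599 ± 0.0651 in Control) were the lowest, and the ranges of Esr2, Greb1 and Cyp19a1 overlapped from each to the next in both groups.

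**Figure D1:**
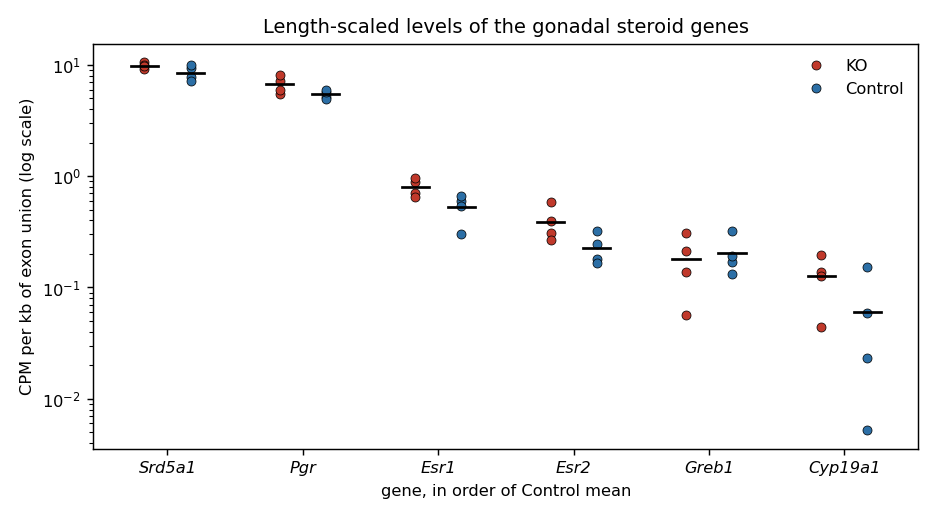
CPM per kb of exon union on a log axis for the 6 genes, ordered by the Control mean, with KO (red) left of Control (blue), 1 point per library and a bar at the mean of 4. Srd5a1 and Pgr lie above 4 CPM per kb in all 8 libraries, and the other 4 genes lie below 1.

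Esr1, which encodes estrogen receptor alpha, had the smallest p of the 6. It measured 12.04, 9.58, 13.2 and 8.84 CPM in KO replicates 1 to 4, against 8.13, 7.36, 9.08 and 4.096 CPM in Control replicates 1 to 4. The groups overlapped through 1 library each, since Control replicate 3 lay above KO replicate 4. The means were 10.9 ± 2.04 CPM in KO and 7.17 ± 2.16 CPM in Control, a log2 fold change of 0.61 (SE 0.23, 1.52-fold, 95% interval 1.09 to 2.13), which did not pass (p = 0.0164 before and adjusted p = 0.340 in edgeR after adjustment over all genes; exact permutation p = 0.0571). Without Control replicate 4, the lowest library, the log2 fold change was 0.41 (adjusted p = 0.659 in edgeR), and without KO replicate 2, the library with pituitary transcripts, it was 0.66 (adjusted p = 0.352 in edgeR). The highest Esr1 values, in KO replicates 1 and 3, fell in the 2 libraries with the lowest mean of glial and vascular markers (3.42 and 3.46 in log2 CPM, against 3.98 and 4.07 in the other KO libraries and 3.70 to 4.34 in Control). When that mean was added to the model Esr1 was at a log2 fold change of 0.41 (adjusted p = 0.614 in edgeR). What glial and vascular content adds to the Esr1 value was not tested.

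Esr2, which encodes estrogen receptor beta and is known from the paraventricular nucleus among other sites, was counted with only 36 to 95 reads per library in KO and 23 to 48 in Control. It measured 1.96, 1.03, 0.891 and 1.32 CPM in KO replicates 1 to 4, against 0.822, 1.08, 0.609 and 0.560 CPM in Control replicates 1 to 4. KO replicate 1 was the highest of the 8, and Control replicate 2 lay above KO replicates 2 and 3. The means were 1.30 ± 0.473 CPM in KO and 0.768 ± 0.238 CPM in Control (log2 fold change 0.76 ± 0.50 SE, 95% interval 0.816-fold to 3.51-fold, adjusted p = 0.654 in edgeR). Without KO replicate 1 the log2 fold change was 0.48.

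Pgr, which encodes the progesterone receptor, was the most abundant of the 3 receptor genes. It measured 61.1, 46.8, 68.9 and 50.9 CPM in KO replicates 1 to 4, against 43.9, 42.4, 48.8 and 50.3 CPM in Control replicates 1 to 4. KO replicates 1, 3 and 4 lay above every Control library, KO replicate 4 by less than 1 CPM, and KO replicate 2 lay among the Control values. The means were 56.9 ± 9.998 CPM in KO and 46.4 ± 3.79 CPM in Control (log2 fold change 0.30 ± 0.13 SE, 95% interval 1.01-fold to 1.49-fold), which did not pass (p = 0.0379 before and adjusted p = 0.436 in edgeR after adjustment; exact permutation p = 0.114). As for Esr1, KO replicates 3 and 1 were the highest libraries, and once the glial and vascular mean entered the model Pgr was at a log2 fold change of 0.17 (adjusted p = 0.751 in edgeR). The part of glial and vascular content in the Pgr value was not tested either.

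Of the 2 converting enzymes, Srd5a1, a steroid reductase that acts on testosterone and progesterone, had the smallest coefficient of variation of the 6 genes among KO libraries (5.90%, against 15.4% among Control libraries). It measured 26.5, 30.6, 29.2 and 28.4 CPM in KO replicates 1 to 4, against 22.4, 27.03, 28.7 and 20.7 CPM in Control replicates 1 to 4. Control replicates 2 and 3 lay within the KO range and Control replicates 1 and 4 below it. The means were 28.7 ± 1.69 CPM in KO and 24.7 ± 3.80 CPM in Control (log2 fold change 0.22 ± 0.14 SE, adjusted p = 0.637 in edgeR), and the 95% interval of the fold ran from 0.950 to 1.42. In the GENCODE M21 annotation Srd5a1 overlaps Nsun2 on the opposite strand and Gm17108 on its own strand, and without strand information reads in shared exons cannot be told apart. Esr2 overlaps Gm7862 on its own strand, and Greb1 overlaps Gm44305 on its own strand and Gm48140 on the opposite strand. Esr1, Pgr and Cyp19a1 overlap no other annotated gene.

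Cyp19a1, which encodes aromatase, the enzyme that makes estradiol from testosterone, was at the edge of detection. It had 30, 25, 8 and 29 reads in KO replicates 1 to 4, against 40, 1, 4 and 12 reads in Control replicates 1 to 4. In CPM these were 0.618, 0.574, 0.198 and 0.893 in KO and 0.685, 0.0235, 0.106 and 0.269 in Control. Libraries of 1 group differed beyond the counting error of reads, which does not cover amplification. The exact 95% Poisson interval was 0.489 to 0.932 CPM in Control replicate 1 and 5.96e-04 to 0.131 CPM in Control replicate 2. The group means were 0.571 ± 0.286 CPM in KO and 0.271 ± 0.294 CPM in Control (log2 fold change 1.03 ± 0.80 SE, adjusted p = 0.723 in edgeR), and the 95% interval of the fold, 0.636 to 6.54, covers changes of either sign. The value moved with single libraries, and the log2 fold change was 2.07 without Control replicate 1, 0.66 without Control replicate 2, and 2.22 when the glial and vascular mean entered the model.

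Greb1, a coregulator of estrogen receptor alpha and itself induced by estrogen in human cells, was the gene with a negative fold change. It measured 1.32, 2.04, 0.544 and 2.93 CPM in KO replicates 1 to 4, against 1.63, 1.27, 3.07 and 1.84 CPM in Control replicates 1 to 4. The spread was wide within each group, with KO replicate 3 the lowest of the 8 and Control replicate 3 the highest. The means were 1.71 ± 1.02 CPM in KO and 1.95 ± 0.782 CPM in Control (log2 fold change -0.19 ± 0.46 SE, 95% interval 0.447-fold to 1.71-fold, adjusted p = 0.928 in edgeR), and the sign turned without KO replicate 3 (0.10) and without Control replicate 3 (0.11). KO replicate 3 was thus the highest library for Esr1 and Pgr and the lowest KO library for Esr2, Cyp19a1 and Greb1.

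**Figure D2:**
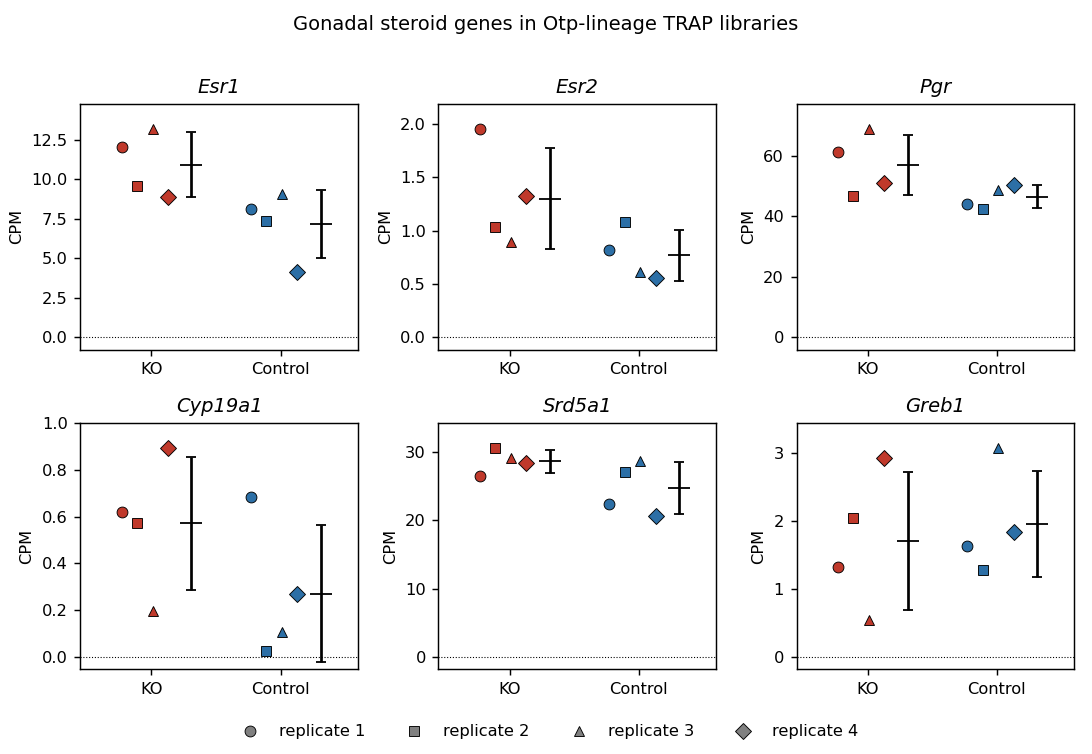
CPM of each gene in each library, KO (red) left of Control (blue), with marker shapes for the replicate number and a black bar with whiskers for the mean ± SD of 4 libraries; each panel has its own axis and a dotted line at 0. The KO and Control points overlap in every panel, by 1 library of each group for Esr1, while for Greb1 the lowest of the 8 points is in KO and the highest in Control.

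**Figure D3:**
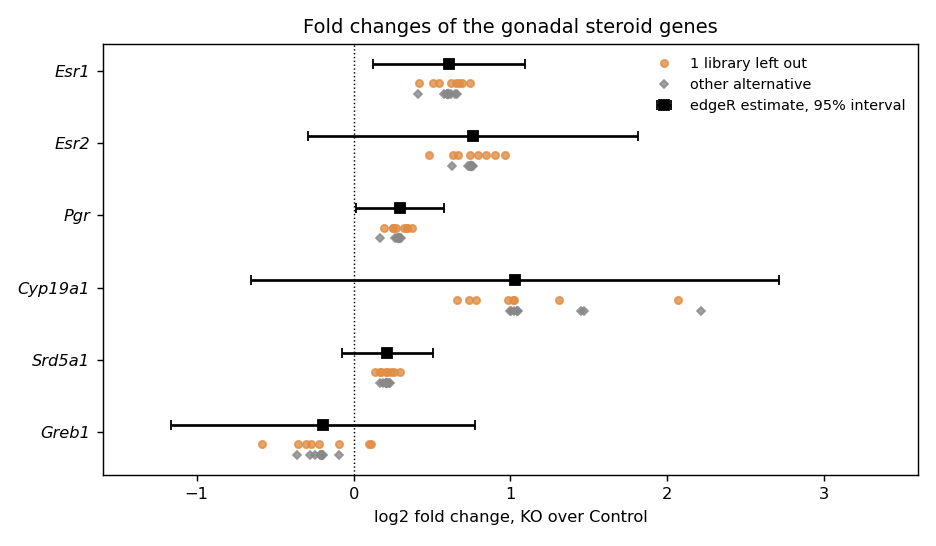
Log2 fold change of KO over Control for the 6 genes, with the edgeR estimate and its 95% interval (black), the 8 estimates that each leave out 1 library (orange) and the estimates under the other alternatives (grey). The estimates stay above 0 for Esr1 (0.41 to 0.74), Esr2 (0.48 to 0.97), Pgr (0.17 to 0.37) and Srd5a1 (0.14 to 0.30). Those of Cyp19a1 run from 0.66 to 2.22, and those of Greb1 lie on both sides of 0. The 95% intervals of Esr2, Srd5a1, Cyp19a1 and Greb1 include 0.

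Across the 8 libraries the 6 genes did not vary as 1 block. Of their 15 pairs, Esr1 and Srd5a1 had the highest Pearson r of log2 CPM (0.74; Spearman rho 0.67; 0.56 after the group means were removed), and Pgr and Greb1 the lowest (-0.55; rho -0.14). Esr1 and Pgr, receptor and known target, had r = 0.56 (rho 0.62), which was 0.22 with the group means removed. Between Esr1 and Greb1 r was -0.35. Such values over 8 libraries, which share the same dissection and amplification, are descriptions only. Among 12778 other genes of at least 1 CPM (12779 for Cyp19a1), the one whose log2 CPM was most like Esr1 was Hcrtr2, an orexin receptor gene (r = 0.96, rho 0.95, r = 0.96 without the 2 libraries farthest from the median), followed by Tmem130 (r = 0.96, rho 0.98, 0.83 without those 2). For the other genes the second value is r without the 2 libraries farthest from each gene's median. The most alike for Esr2 were Kctd7 (0.97, 0.95) and Gtf2h2 (0.96, 0.95), and for Pgr Rcor3 (0.98, 0.86) and Klhl13 (0.98, 0.90). For Cyp19a1 they were Ranbp10 (0.96, 0.93) and Ndufs1 (0.93, 0.96), for Srd5a1 Nucb2 (0.96, 0.75) and Aldh9a1 (0.95, 0.70), and for Greb1 Commd5 (0.98, 0.93) and S1pr3 (0.97, 0.94). These are the highest of all candidate values for each gene and carry no p.

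The 6 genes lie on GRCm38 chromosomes other than that of Cic, which is on chromosome 7. Esr1 spans chr10:4611593-5005614 on the plus strand, Pgr chr9:8899833-8968611 on the plus strand and Cyp19a1 chr9:54165937-54268110 on the minus strand. Esr2 (chr12:76120419-76177259), Greb1 (chr12:16670615-16800886) and Srd5a1 (chr13:69573449-69611442) are on the minus strand. All 6 had at least 1 window in the RefSeq promoter table of GRCm38.p6, which runs from 250 bases before to 50 bases after an annotated start, for 10 windows in all. The octamers through which Capicua is known to bind DNA, TGAATGAA and TGAATGGA, were in 0 of the 10 windows on either strand, against 1.30% and 1.21% of all 32851 windows. The full estrogen response element (GGTCA and TGACC with any 3 bases between them) was in 0 of the 10 (0.070% of all windows). So was the androgen and progesterone receptor element, AGAACA and TGTTCT with any 3 bases between them (0.009%). The single arm AGGTCA, whose last 5 letters are also the first 5 of the full element, was in 2 of the 10, 1 of Cyp19a1 and 1 of Greb1, against 16.3% of all windows. These matches describe letters in short windows and not bound sites. The first windows of Esr1 and Pgr, the receptor genes of smallest p, and that of Greb1 with the single arm are given 5′ to 3′ on the strand of the gene, with a motif match in capitals (on the opposite strand of Greb1, first base 88 bases before the start) and none in the other 2.
Esr1, chr10:4611739-4612038, plus strand: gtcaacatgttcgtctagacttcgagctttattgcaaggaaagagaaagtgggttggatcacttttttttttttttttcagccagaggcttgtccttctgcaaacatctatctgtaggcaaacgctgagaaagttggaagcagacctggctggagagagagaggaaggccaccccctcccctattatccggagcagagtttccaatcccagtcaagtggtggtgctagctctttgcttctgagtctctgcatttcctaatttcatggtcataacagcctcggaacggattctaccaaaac
Pgr, chr9:8899583-8899882, plus strand: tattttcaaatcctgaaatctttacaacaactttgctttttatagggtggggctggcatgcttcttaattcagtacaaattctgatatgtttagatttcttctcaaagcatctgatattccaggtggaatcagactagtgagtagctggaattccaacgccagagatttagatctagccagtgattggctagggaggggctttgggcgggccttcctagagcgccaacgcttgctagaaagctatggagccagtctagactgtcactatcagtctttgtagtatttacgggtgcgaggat
Greb1, chr12:16800837-16801136, minus strand: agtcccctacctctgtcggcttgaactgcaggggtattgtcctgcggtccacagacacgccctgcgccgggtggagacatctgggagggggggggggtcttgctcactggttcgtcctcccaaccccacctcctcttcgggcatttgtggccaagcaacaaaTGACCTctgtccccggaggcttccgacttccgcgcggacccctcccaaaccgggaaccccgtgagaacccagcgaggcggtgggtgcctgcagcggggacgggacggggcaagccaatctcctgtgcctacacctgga

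The wider pathway was described through 6 lists of 85 genes, of which 71 were tested. Of the 71, 1 rose and 0 fell at the adjusted threshold, where 0.194% of all tested genes were higher in KO and 0.0648% lower. The median log2 fold change of the 71 was 0.07 beside 0.02 for all tested genes. At an unadjusted p of 0.05, 13 of the 71 passed, against 10.6% of all tested genes, and for 6 of the 71 the KO and Control ranges did not overlap, against 5.93%.

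Of 9 other genes for sex steroid receptors and binding proteins none passed, 5 were positive and the median log2 fold change was 0.12. The membrane progesterone receptors Paqr9 and Paqr6 were at log2 fold changes of 0.24 and 0.45, and Gper1, a G protein-coupled receptor for estrogen, at -1.02 with 0.328 ± 0.283 CPM in KO and 0.649 ± 0.586 CPM in Control (adjusted p = 0.724 in edgeR). Single libraries carried some of these values: Gper1 was at -0.22 without Control replicate 1, -1.63 without KO replicate 4 and -0.15 once the glial and vascular mean entered the model, and Paqr6 at 0.14 without KO replicate 4 and 0.30 without Control replicate 4. Pgrmc1, a heme-binding membrane protein, was far more abundant, at 267 ± 23.3 CPM in KO and 244 ± 15.4 CPM in Control (log2 fold change 0.13). Among 6 relatives of the receptors and of Greb1 none passed (3 positive, 3 negative, median -0.09). The smallest p among these was that of Greb1l, the paralogue of Greb1, at a log2 fold change of -0.42 (adjusted p = 0.672 in edgeR), followed by the mineralocorticoid receptor gene Nr3c2 (-0.21), the estrogen-related receptor genes Esrrg (0.19) and Esrra (-0.23). Each of these except Nr3c2 moved by more than 1.5 times without single libraries, Greb1l to -0.22 without Control replicate 2, Esrrg to 0.10 without KO replicate 2 or 3 and Esrra to -0.09 without Control replicate 4.

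Of 28 genes of steroid synthesis, conversion and transport 15 were tested and none passed (9 positive, 6 negative, median 0.06), and Hsd17b8 and Sts were not analysed here. Hsd17b12, which encodes a hydroxysteroid dehydrogenase that also elongates fatty acids, had the smallest p. It measured 45.3, 49.99, 30.8 and 52.8 CPM in KO replicates 1 to 4, against 33.7, 33.1, 26.7 and 28.4 CPM in Control replicates 1 to 4. KO replicate 3 alone lay within the Control range. The log2 fold change was 0.55 ± 0.15 SE (adjusted p = 0.164 in edgeR). Over 18 alternatives it ran from 0.46 to 0.70 and did not pass in 17 of them. It passed in 1, without KO replicate 3, at 0.70 (adjusted p = 0.0350 in edgeR). Hsd17b7 was at -0.25 and the cytochrome reductase gene Por at 0.18. Tspo, a mitochondrial membrane protein gene, was sparse, with 0.833 ± 0.310 CPM in KO and 0.518 ± 0.130 CPM in Control (log2 fold change 0.68, adjusted p = 0.742 in edgeR), and did not overlap between the groups; without KO replicate 4 it was at 0.39. Por was at 0.02 without KO replicate 2. Srd5a3, a relative of Srd5a1, was at 9.98 ± 3.36 CPM in KO and 10.01 ± 1.049 CPM in Control, and Star, which carries cholesterol into mitochondria, at 6.03 ± 1.27 CPM in KO and 5.98 ± 0.824 CPM in Control. Srd5a2, the reductase of the male genital tract, was too sparse to be tested, at 0.0361 ± 0.0721 CPM in KO and 0.0118 ± 0.0235 CPM in Control. Cyp17a1, which makes androgens from progestogens, was at 0 reads in all 8 libraries, as were Hsd3b2, Hsd3b6, Hsd17b3 and Akr1c6. A count of 0 allows up to 0.0618 to 0.0924 CPM in KO libraries and 0.0513 to 0.0794 CPM in Control libraries (3 counts per library).

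Among 16 receptor coregulators none passed, 12 were positive and the median log2 fold change was 0.12. The coactivator genes Ncoa4 (0.37), Ep300 (0.32) and Ncoa2 (0.28) and the arginine methyltransferase gene Carm1 (-0.34, adjusted p = 0.269 in edgeR) had the smallest p. Carm1 was at 52.0 ± 3.35 CPM in KO and 65.7 ± 4.795 CPM in Control, without overlap. Ncoa4 (159 ± 29.8 CPM in KO, 123 ± 12.1 CPM in Control) and Ncoa2 (153 ± 18.8 CPM in KO, 126 ± 10.4 CPM in Control) were also without overlap, with KO higher. Ncoa4 was at 0.22 without KO replicate 1 and Ncoa2 at 0.21 without KO replicate 2. In all, 3 of the 16 did not overlap, against 5.93% of all tested genes (3.01% with KO higher, 2.91% with KO lower). Of 9 genes for receptor chaperones and their partner proteins none passed (median 0.01), with Hsp90aa1 at 0.33, Hsp90ab1 at 0.19, Fkbp5 at -0.36 and Stub1 at -0.37. Without KO replicate 1 Hsp90aa1 was at 0.12 and Hsp90ab1 at 0.05, and without KO replicate 3 Fkbp5 was at -0.21 and Stub1 at -0.20.

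Of 17 genes known in rodents to respond to gonadal steroids or to differ between the sexes in hypothalamus or amygdala, 16 were tested, 1 rose, 0 fell and 15 did not pass (0.194% of all tested genes rose and 0.0648% fell). Of the 16, 10 were positive and 6 negative, with a median log2 fold change of 0.17 beside 0.02 for all tested genes, of which 53.8% were positive. At an unadjusted edgeR p of 0.05, 6 of the 16 passed, against 10.6% of all tested genes. For 2 of the 16, Prlr and Cckar, the groups did not overlap, both with KO higher. That holds for 3.01% of all tested genes with KO higher and for 5.93% in either direction. The gene that rose was Prlr, which encodes the prolactin receptor. It measured 29.7, 23.4, 29.0 and 21.2 CPM in KO replicates 1 to 4, against 14.8, 11.2, 17.6 and 14.5 CPM in Control replicates 1 to 4, so that every KO library lay above every Control library. The means were 25.8 ± 4.16 CPM in KO and 14.5 ± 2.61 CPM in Control (log2 fold change 0.83 ± 0.17 SE, adjusted p = 0.0384 in edgeR). In an exact two-sided permutation test p was 0.0286, and 4 against 4 libraries can go no lower. Every gene without overlap between the groups has this value, so it adds nothing to the lack of overlap. The log2 fold change was 0.71 to 0.94 over 18 alternatives, and the call held in 10 of them. The adjusted p was above 0.05, at log2 fold changes of 0.71 to 0.87, without KO replicate 1 (adjusted p = 0.0897 in edgeR), 2 (0.0623) or 3 (0.0984) and without Control replicate 1 (0.137), 2 (0.138) or 4 (0.146), with the glial and vascular covariate (log2 fold change 0.71, adjusted p = 0.168 in edgeR) and with total counts (0.0537). Choroid plexus, a tissue rich in this receptor, left markers that summed to 36.1 to 191 CPM in KO libraries and 14.1 to 541 in Control libraries, with the highest sum in Control replicate 4, and their part in the Prlr value was not tested. The other 3 of smallest p were Cckar (22.7 ± 1.24 CPM in KO, 14.5 ± 4.197 CPM in Control, log2 fold change 0.65, adjusted p = 0.165 in edgeR, no overlap), Pak3 (0.46) and Avp, the vasopressin gene (0.43). Pak3 was at 0.25 without KO replicate 1, and Avp at 0.19 without KO replicate 4. Kiss1, the kisspeptin gene, was too sparse to be tested. In the GENCODE M21 annotation it overlaps Gm28040 and Golt1a on its own strand, and how reads shared with them were counted was not examined.

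**Figure D4:**
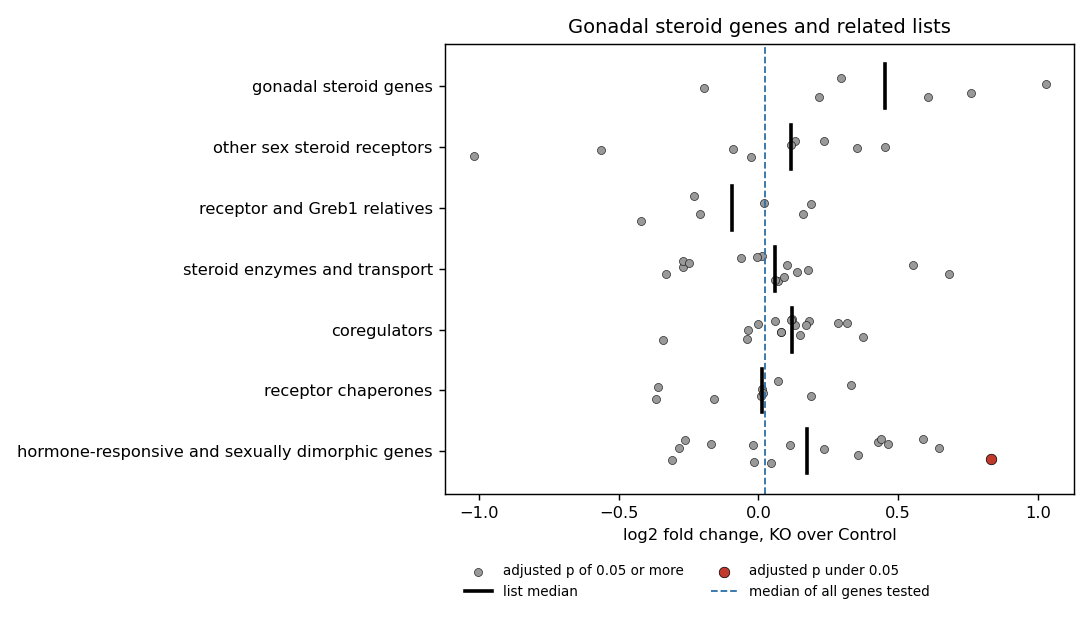
Log2 fold change of KO over Control for every tested gene of the 6 gonadal steroid genes and the 6 related lists, 1 point per gene, with the list median as a black bar and the median of all tested genes (0.02) as a dashed line. Prlr, in red at 0.83, is the only point past an adjusted p of 0.05, and the medians of the related lists lie between -0.09 and 0.17.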

How the data were processed

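RNA bound to ribosomes was purified from Otp-lineage cells (translating ribosome affinity purification), amplified from 10 ng to double-stranded cDNA and sequenced, per the labels' protocols. The authors deposited whole, unscaled counts of reads for each gene symbol. Per the submitters' processing notes the tools were TopHat2 2.0.9, HTSeq and DESeq2, with the build mm10, while the annotation and strand setting were not given in the sources used here. Amplified copies cannot be told from separate molecules, so intervals from counts cover counting error only. The 92 ERCC spike-in rows and 5 counter rows were left out. Reads that aligned to several places made up 69.2% to 81.9% of all counted records in KO and 63.3% to 74.1% in Control.

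Differences were tested by edgeR (version 4.0.16, under R version 4.3.3; filterByExpr with minimum count 10 and minimum total 15, TMM scaling, robust quasi-likelihood fit over all 8 libraries, no covariate), with Benjamini-Hochberg adjustment over all tested genes and a threshold of 0.05. CPM uses TMM-scaled library sizes; SE and 95% intervals follow from the quasi-likelihood F. Exact two-sided permutation tests and correlations used log2(CPM + 0.5). Lengths are exon unions of GENCODE M21 (GRCm38), which may differ from the authors' annotation, and promoter windows are RefSeq's. The labels do not say whether libraries are separate animals, so p-values cover only the spread of these 8 libraries, which may be technical. No pair of libraries agreed within sampling noise (chi-square per degree of freedom of 27.2 or more over 28 pairs).

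The genes and lists were chosen with earlier results of these data known. Besides the 6 genes and Cic, the text names the 4 genes of smallest p in each list (1 of them is not reported here), those past the threshold, a few chosen for their role, genes that were at 0 or not tested, and the 2 genes most alike over the 8 libraries. Alternatives were other scalings (DESeq2 size factors, upper quartile, total counts), other filters, DESeq2 1.42.0, limma-voom (limma 3.58.1), a replicate block, 2 covariates and leaving out each library.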

Additional observations from a re-analysis of the deposited data

Results flagged for a closer look

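In each group of 4 libraries, values were looked at for 1 library whose gap to its neighbour exceeds Dixon's critical share of the group's range. Chance marks about 1 in 20 groups, and 8 of the 62 groups examined were marked, none of them among the 6 gonadal steroid genes. Cic stood at 72.4 CPM in Control replicate 2, below the other Control libraries at 100.5 to 103 CPM. That library was also apart for Greb1l (6.61 CPM, against 3.94 to 4.28 CPM in the others) and for Ncoa2 (110 CPM, against 129 to 133 CPM). Nr3c2 was at 16.1 CPM in Control replicate 1, against 20.6 to 21.4 CPM in the others. Pak3 was at 131 CPM in Control replicate 3 (109 to 112 CPM in the others) and at 221 CPM in KO replicate 1 (130 to 144 CPM in the others). KO replicate 1 was also apart for Ncoa4, at 204 CPM against 141 to 150 CPM. Tspo was at 1.29 CPM in KO replicate 4, against 0.643 to 0.735 CPM in the other KO libraries.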

How the results depend on the processing

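Esr1, Esr2, Pgr and Srd5a1 kept a positive fold change and stayed short of the threshold in 18 of 18 alternatives each, and Cyp19a1 in the 17 that gave it a value, since a filter of 1 CPM in 4 libraries leaves it out (DESeq2 gave it a fold change and no adjusted p). Over these alternatives the log2 fold change ran from 0.41 to 0.74 for Esr1, 0.48 to 0.97 for Esr2, 0.17 to 0.37 for Pgr, 0.14 to 0.30 for Srd5a1 and 0.66 to 2.22 for Cyp19a1, and the smallest edgeR, limma or DESeq2 adjusted p of any of them was 0.203. Greb1 turned to 0.10 without KO replicate 3 and 0.11 without Control replicate 3 (range without 1 library -0.58 to 0.11; the cause was not tested beyond those 2 values). Cic passed in all 18. The number of genes called, 40, was 26 with total counts, 198 with the DESeq2 test and 14 to 53 without 1 library. The related lists held 1 called gene, 0 with total counts, 0 with the glial and vascular covariate and 0 to 1 without 1 library; the cause was not tested.

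With the replicate block 65 genes were called. Deviations of same-numbered libraries correlated at -0.07 to 0.15, and 2 of 8 libraries correlated best with their own number, so the numbers were not taken to pair the libraries, though both replicate 4 libraries were among those that did; the block changed no call of the 6 genes. Depth limits Cyp19a1, Esr2 and Greb1 most, at 1 to 116 reads per library.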
